A study of Oryza sativa Japonica Group with 32 samples.

Results

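Adenines that stand between a G and a T in the protein-coding part of rice nuclear transcripts are described here. They were chosen from the deposited table of N6-methyladenosine (m6A) sites as the rows placed in coding sequence, outside the plastid and mitochondrial chromosomes, whose central 3 letters are G, A and T. The table listed 15665 such sites among 205691 sites in all, and 71833 of the latter lay in nuclear coding sequence. Counting a site in a tissue required an m6A fraction of at least 0.1 at a read depth of 20 or more. By this rule 14907 of the 15665 sites were counted in at least 1 tissue, in 7708 genes, and 758 were counted in none. Each of these 758 carried the authors' detection flag in some tissue at a depth below 20.

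The tissues came from rice (Oryza sativa, japonica group) of the cultivar Nipponbare, with no mutant or transgene. Plumules, the shoots of the germinating seed, were taken 3 days after germination in the dark or in the light. Seedlings were 8 days or 2 weeks old, the panicle was at heading, and flag leaf, endosperm and embryo were taken 10 days after anthesis. Each of the 8 tissues had 2 treated and 2 untreated libraries of polyA RNA. Treated RNA was labelled by m6A-SAC-seq, in which an enzyme modifies m6A so that reverse transcription misreads it, and spike-in probes of known m6A content turn the misreading rate into a fraction of methylated molecules. The site table gives 1 fraction per site and tissue with both replicates combined, so no site has a replicate error, and what varies below is the tissue. Gene expression was deposited for each untreated library in TPM, the abundance of a transcript scaled for length and library size.

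m6A is the commonest internal mark of messenger RNA and is placed by a methyltransferase complex built around MTA and MTB, the plant counterparts of METTL3 and METTL14. The complex favours a consensus in which the methylated adenine follows a purine and precedes a C, most often in the 3′ untranslated region (3′ UTR) and near the stop codon. An adenine followed by T is outside that consensus, and coding sequence is a less used region. In coding sequence the triplet GAT, read in frame, is a codon for aspartate.

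Only the 5 letters around each adenine were at hand, written 5′ to 3′ with T for U and the central triplet in capitals. The first 4 are the commonest members, which differ only in the last base. The last 2 belong to single sites described below, one with the rare C before the triplet and one with a G.
Commonest motif: aGATg
With a final T: aGATt
With a final A: aGATa
With a final C: aGATc
SNRK1A site: cGATg
RbcS3 site: gGATt

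One motif made up more than any other. aGATg was found at 8044 sites, or 51.4% of the members, followed by aGATt at 2029, aGATa at 1968 and aGATc at 1046. An A stood before the triplet at 83.5% of members. The share was 64.8% of the 30012 listed coding sites in which the adenine stands between G and C (GAC sites). It was 56.1% of the 13600 listed GAT sites in 3′ UTRs. A G stood after the triplet at 60.2% of members, against 17.9% of the GAC coding sites and 33.8% of the GAT sites in 3′ UTRs. GAC sites cannot hold aGATg, and their counterpart aGACg made up 14.0% of them, while aGATg made up 22.9% of the GAT sites of 3′ UTRs. How often each 5-mer occurs in rice coding sequence was not counted, because the genome was not used here.

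Of the 4 bases that can precede the triplet, C was the rarest. It was found at 136 sites, 0.868% of the members, all of them counted in at least 1 tissue. These sites had a mean fraction of 0.196, between 0.187 in the embryo and 0.214 in the flag leaf. Members with another base there had a mean of 0.156, lower in 8 of 8 tissues. The mean difference was -0.0397 (range over tissues -0.0573 to -0.0317). An exact two-sided sign-flip permutation gave p = 0.00781, the smallest that 8 tissues allow, and 0.0130 after Benjamini-Hochberg adjustment over 10 tests. Each tissue counted 85 to 106 of the C sites, and tissues share them, so this p-value does not measure the spread among sites. The authors calibrate the fraction per motif, and the part of that calibration in this gap was not tested. The C class was also shared more widely, with 44 of its 136 sites (32.4%) counted in all 8 tissues against 3.83% of the other members. It carried the detection flag less often, at 48.6% of counted values against 58.7%. The consensus excludes C at that position. At the base after the triplet, members with G and without G had mean fractions of 0.156 and 0.156, and their difference varied in sign over the tissues, from -0.00244 to 0.00301 (exact permutation p = 0.953). Without the limit of 0.1, over all values at the members read 50 times or more in each tissue, those with G had a mean of 0.107 and those without G 0.0912, a difference (without G minus with G) of -0.0159 in the same direction in 8 of 8 tissues (exact permutation p = 0.00781, adjusted 0.0112). Each of these deeply read members had reached 0.1 in at least 1 tissue, so the limit still took part in choosing them. Counting in all 8 tissues was also more frequent with G, at 4.88% of sites against 2.85%. The even means thus hold only for counted values, and the direction turned with some other rules.

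Tissues read more deeply had more counted members. The endosperm had the fewest, 4899 sites, and the embryo had 5050. The 2-week seedling had 5477, the dark plumule 5954 and the light plumule 6226. The 8-day seedling had 6732, the panicle 7182 and the flag leaf 7314. The order was close to that of the median depth of the listed members, which ran from 41 reads in the endosperm to 85 in the flag leaf. Over the 8 tissues the count and that depth had a Pearson r of 0.914 and a Spearman rho of 0.905, given as a description, and r was 0.899 without the endosperm and the 2-week seedling, the 2 tissues farthest from the median depth. All 8 points rest on the same list of sites. Among members read 20 times or more, the share counted ran from 41.8% in the embryo to 56.7% in the flag leaf. This share also went with the median depth (Pearson r = 0.761, Spearman rho = 0.786, n = 8, a description), with r = 0.842 without the same 2 tissues.

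**Figure D1:**
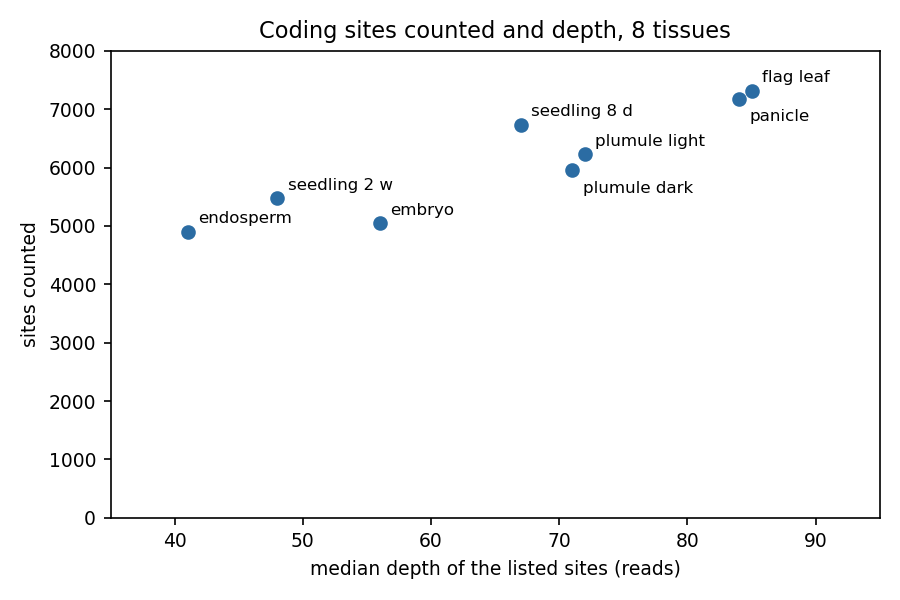
Number of members counted (vertical axis) against the median read depth of the 15665 listed members (horizontal axis, reads), 1 point per tissue. The endosperm lies lowest with 4899 sites at a median of 41 reads, and the flag leaf highest with 7314 at 85.

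Levels of counted members were low. Their mean fraction was 0.154 in the dark plumule, 0.155 in the light plumule and 0.155 in the embryo. It was 0.157 in the 8-day seedling, 0.157 in the panicle, 0.158 in the 2-week seedling, 0.158 in the endosperm and 0.158 in the flag leaf. Because a value below 0.1 is not counted, these means lie close above the lower limit and can move little, and the median ran only from 0.136 to 0.140. A fraction of 0.2 or more was reached by 15.5% to 18.0% of counted members, and one of 0.5 or more by 0.0975% to 0.205%. The mean fraction did not follow depth over the tissues (Pearson r = -0.0881, Spearman rho = -0.0238, n = 8, a description). Without the endosperm and the 2-week seedling r was 0.526.

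The same coding sequence held higher fractions where the adenine stood between G and C. GAC coding sites had a mean fraction of 0.191, between 0.188 and 0.195 in the tissues. GAT coding sites were lower in 8 of 8 tissues, with a mean difference of -0.0347 (range -0.0371 to -0.0323; exact sign-flip permutation p = 0.00781, adjusted 0.0130). Over all values at sites read 50 times or more in each tissue, with no fraction limit, the means were 0.1002 and 0.116, a smaller difference of -0.0160 in the same direction in 8 of 8 tissues (exact permutation p = 0.00781, adjusted 0.0112). The GAT triplet in 3′ UTRs had a mean of 0.261, between 0.2496 in the dark plumule and 0.275 in the embryo. Coding GAT sites lay below it in 8 of 8 tissues, with a mean difference of -0.105 (range -0.120 to -0.0956; exact sign-flip permutation p = 0.00781, adjusted 0.0130). Without the fraction limit this difference was -0.0784, between means of 0.1002 and 0.179 (8 of 8 tissues, exact permutation p = 0.00781, adjusted 0.0112). The gap between coding sequence and 3′ UTR for 1 counted triplet was thus wider than the gap between the 2 triplets within coding sequence in each tissue. This covers GAT and GAC only. The 4342 listed coding sites with the adenine between A and C had a mean fraction of 0.402, between 0.386 and 0.421 in the tissues. They lay above the GAT sites of 3′ UTRs, and their own gap to the members was not tested. The deeply read GAT and GAC sites had all reached 0.1 in at least 1 tissue. The limit thus still took part in choosing the sites behind the means without a fraction limit. Tissues share sites and genes, so the p-values describe these 8 tissues and not independent samples of rice. The fraction is calibrated per motif by the authors, and the part of that calibration in the gap between triplets was not tested.

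**Figure D2:**
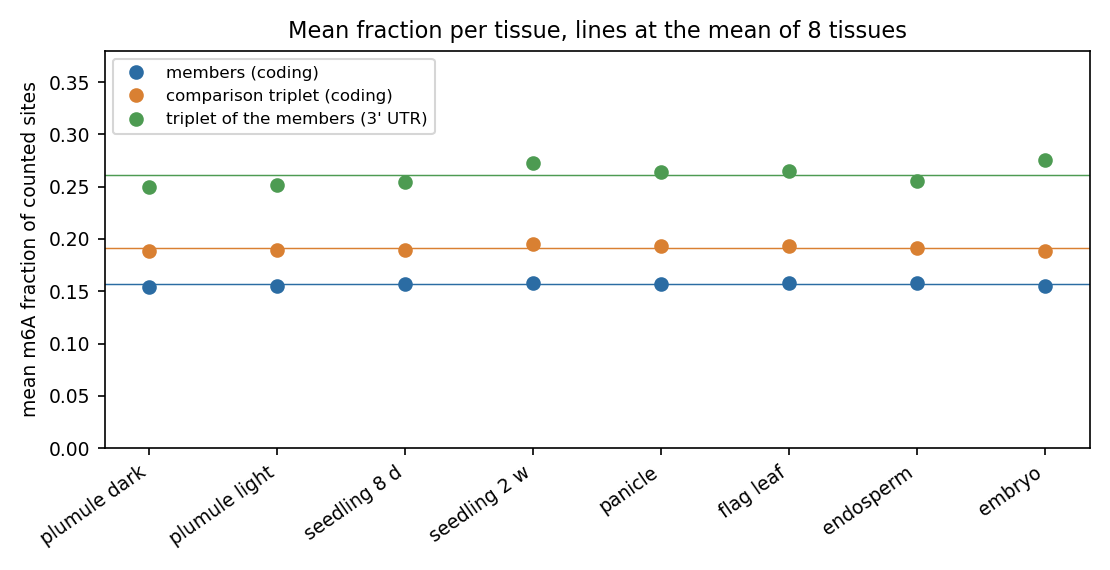
Mean m6A fraction of counted sites (vertical axis) in each of the 8 tissues (horizontal axis). Blue points are the members, orange points the GAC coding sites and green points the GAT sites of 3′ UTRs, with horizontal lines at 0.156, 0.191 and 0.261, and the 3 sets do not overlap in any tissue.

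Members made up 19.9% to 21.3% of all counted coding sites in a tissue. In the 3 reproductive tissues (panicle, endosperm and embryo) the share averaged 20.4%, as in the other 5 tissues (20.4%), with a difference of -0.0819 percentage points (exact permutation of all 56 splits, p = 0.839, adjusted 0.933). Their mean fractions of 0.157 and 0.156 differed by 0.000434 (exact permutation p = 0.607, adjusted 0.759). The 8 contrasts that were made within tissues, among them the gap to GAC coding sites and that to the 3′ UTR, were also compared between the tissue classes. None of the 8 passed, with an adjusted p of 0.982 in each exact permutation test, where the smallest p possible is 0.0179.

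Fewer members than GAC sites carried the authors' detection flag. Over the tissues 58.5% of counted members were flagged on average, lowest at 40.4% in the 2-week and highest at 70.2% in the 8-day seedling. The GAC coding sites averaged 67.4%, and the members lay below them in 8 of 8 tissues, with a mean difference of -8.90 percentage points (range -16.7 to -2.92; exact sign-flip permutation p = 0.00781, adjusted 0.0130). Flagged members were read more deeply: in the dark plumule their median depth was 138 reads against 55 for counted members without the flag, and the median fractions were 0.152 and 0.124. Among values with a fraction of at least 0.2 the gap was gone, and 87.1% of members and 86.2% of GAC sites were flagged (difference 0.915 points, exact permutation adjusted p = 0.518).

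Most members were counted in few tissues. Of the 15665, 3380 (21.6%) were counted in 1 tissue, 3163 in 2 and 2548 in 3, and 638 (4.07%) in all 8. Counting in all 8 was more frequent among GAC coding sites (5.76%) and among GAT sites of 3′ UTRs (16.9%). Because a thinly read site cannot be counted, sites that reached 50 reads in each tissue were also set apart. There were 4394 such members, of which 1021 were counted in 1 tissue and 424 (9.65%) in all 8. The matching shares for all 8 were 15.2% of 7372 GAC coding sites and 35.9% of 3180 GAT sites of 3′ UTRs.

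**Figure D3:**
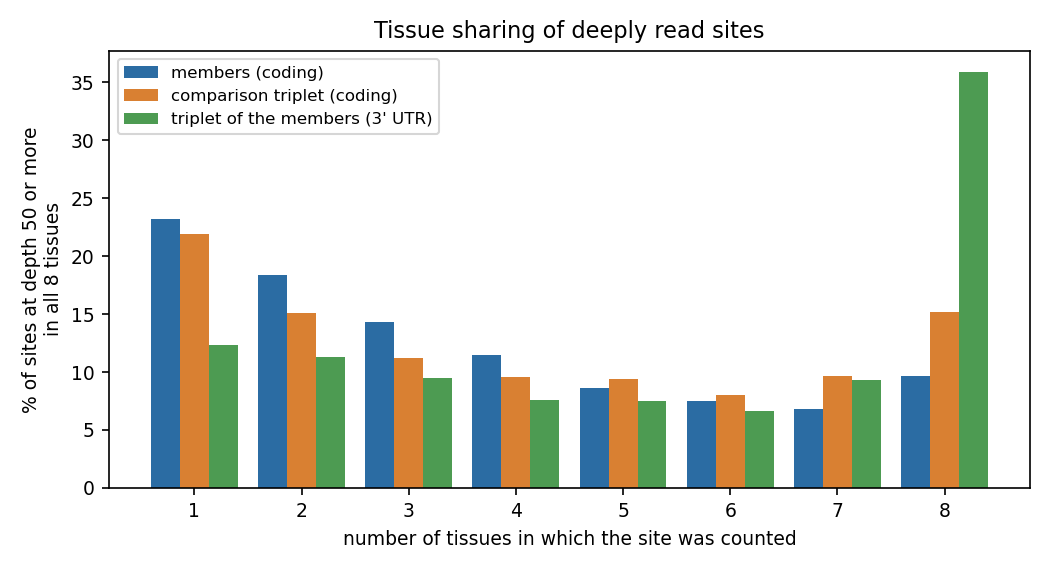
Percent of sites (vertical axis) by the number of tissues in which they were counted (horizontal axis), for sites at a depth of 50 or more in all 8 tissues. Blue bars are 4394 members, orange bars 7372 GAC coding sites and green bars 3180 GAT sites of 3′ UTRs, and the bars at 8 tissues stand at 9.65%, 15.2% and 35.9%.

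In each tissue, the share of counted members found in that tissue and no other averaged 6.71%, against 6.86% of GAC coding sites. The difference of -0.154 percentage points was not past the threshold (exact sign-flip permutation p = 0.578, adjusted 0.759). The flag leaf had 709 such members, the panicle 664 and the 8-day seedling 553, and the 2-week seedling had the fewest with 227. This comparison turned with a higher limit. At a fraction of at least 0.2, 45.6% of members and 22.6% of GAC coding sites were found in a single tissue. The share of members was higher in 8 of 8 tissues (exact permutation p = 0.00781, adjusted 0.0156). On average over the tissues, 16.9% of counted members and 31.0% of counted GAC coding sites reached 0.2. The part of level in this comparison was not tested. With the detection flag in place of the fraction limit the single-tissue shares were 27.8% and 20.03% (exact permutation p = 0.00781, adjusted 0.0117).

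The 4394 deeply read members give values of all 8 tissues at the same sites. Each of them had reached 0.1 in at least 1 tissue. A tissue that brought more sites over 0.1 is raised by this choice, so the order of tissues is a description. Sites counted in 1 tissue only numbered 194 in the 8-day seedling, 178 in the flag leaf, 149 in the panicle and 89 to 116 in the others. Over all values of the 4394 sites, with no fraction limit, the mean fraction was highest in the flag leaf (0.110) and lowest in the embryo (0.0929). The panicle had 0.103 and the 8-day seedling 0.102. The share of them counted was 54.2% in the flag leaf and 37.7% in the embryo. The flag leaf held the highest value of 829 of these sites and the embryo that of 358. Per site, the range from the lowest to the highest tissue had a median of 0.0845, against 0.106 at GAC coding sites and 0.112 at GAT sites of 3′ UTRs. Only 51 members (1.16%) had a range of at least 0.2, against 11.4% and 14.1% of the other 2 sets. The sets also differ in level, with mean fractions of 0.1002, 0.116 and 0.179 at these sites. The range was not scaled by level, so a smaller range is not read as less variation relative to level. Between pairs of tissues, the fractions of the 4394 sites had a median Pearson r of 0.502 over 28 pairs. The highest was 0.601 between the dark and light plumules and the lowest 0.428 between the 8-day seedling and the embryo. These correlations run across sites, which are not replicates.

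Members lay slightly nearer to splice sites than the GAC coding sites did. The median distance to the nearest splice site in the deposited table was 61 bases, against 68 for the GAC coding sites. Of counted members, 46.5% lay within 50 bases, against 44.3%. The difference of 2.14 percentage points had the same sign in 8 of 8 tissues (range 1.54 to 2.68, exact sign-flip permutation p = 0.00781, adjusted 0.0130). The distance of a site is the same in every tissue, and the tissues draw on the same listed sites. The p-value therefore does not measure the spread among sites. At fractions of at least 0.2 the difference was no longer present (-0.543 points, exact permutation adjusted p = 0.564). The fraction itself was 0.153 within 10 bases, 0.154 from 11 to 100, 0.158 from 101 to 200 and 0.163 beyond 400 bases, so nearness to a splice site went with a slightly lower fraction, which was not tested.

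A distance of exactly 0 was listed for 532 members (3.40%) and for 541 GAC coding sites (1.80%), and 284 of the 532 were aGATg. Over the tissues 3.02% of counted members and 1.94% of counted GAC sites had this distance. The mean difference was 1.08 points, with the same sign in 8 of 8 tissues (range 0.908 to 1.36), given as a description. This distance was singled out after the values by distance had been seen, and the tissues draw on the same listed sites. No test is therefore read from it.

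For part of the members the reading frame could be read from the table itself. Where a transcript had a listed methylated adenine in its start or stop codon, the position of that adenine fixed the frame. This was so for 105 transcripts through the start codon and 213 through the stop codon, which held 720 members. In 7 transcripts with both, both gave the same frame, and none of 73 members with a T before the triplet fell where the letters TGA would make an in-frame stop.

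Members lay mainly in aspartate codons. The adenine was at codon position 2, in GAT for aspartate, at 387 of the 720 members (53.8%). It was at position 1 at 278 (38.6%), where 138 were the methionine codon ATG and 140 were isoleucine codons. It was at position 3 at 55 (7.64%), of which 48 were arginine and 7 glycine codons. Among 1284 GAC coding sites framed in the same way, positions 1, 2 and 3 held 36.8%, 46.3% and 16.9%. Counted members at position 2 had a mean fraction of 0.160, against 0.149 at the other positions. The difference of 0.0109 had the same sign in 8 of 8 tissues (range 0.00389 to 0.0150, exact sign-flip permutation p = 0.00781, adjusted 0.0130). Each tissue counted 134 to 204 members at position 2, and tissues share them, so the p-value does not measure the spread among sites. The difference was 0.00731 among fractions of at least 0.2 (exact permutation adjusted p = 0.223). Codon frequencies in rice were not used here, so no excess over the coding sequence can be given. Transcripts with a methylated start or stop codon are a selected 318, and the order of codon positions may differ elsewhere.

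**Figure D4:**
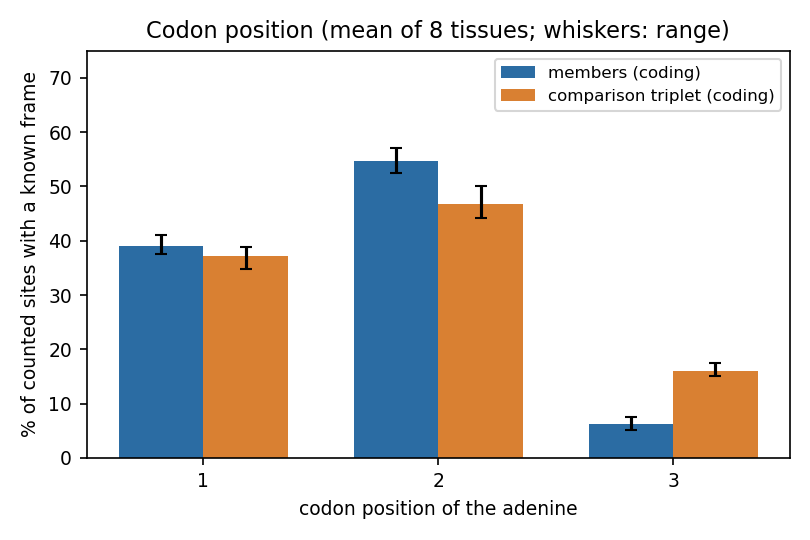
Share of counted sites with a known frame (vertical axis, percent) by codon position of the adenine (horizontal axis), as the mean of 8 tissues with whiskers from the lowest to the highest tissue. Blue bars are members and orange bars GAC coding sites, and at position 3 the members average 6.20% and the GAC sites 16.0%.

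The spacing of neighbouring members gave a second view of the frame that needs no start or stop codon. Of 7520 pairs of neighbouring members in the same transcript, 3553 (47.2%) were a multiple of 3 bases apart, where an even spread would give 33.3%. For the GAC coding sites the share was 39.8% of 18280 pairs, and for GAT sites of 3′ UTRs, which carry no frame, 35.1% of 5424 pairs. At the shortest distances, 54 pairs of members were 3 bases apart, 6 were 4 apart and 13 were 5 apart. Members 3 bases apart on the genome repeat the triplet, and joining their 5-mers gives the 8 letters below, shown because both adenines of each were listed as methylated.
Commonest repeat, 22 pairs: aGATGATg
With G before it, 7 pairs: gGATGATg
With T before it, 6 pairs: tGATGATg
With a C after it, 7 pairs: aGATGATc
A repeat of the first kind at chr4:34606473-34606480 (IRGSP-1.0, minus strand) in Os04g0677500 had both adenines counted in 8 of 8 tissues. The start of a repeat in Os06g0271500, at chr6:9131688-9131695 on the minus strand, was counted in 8 tissues and its second adenine in 4.

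Members highest in all tissues were taken as those with the largest value in their lowest tissue among the 4394 deeply read sites. These values chose the sites, so they are given as a description. The first was in SNRK1A, which encodes a catalytic subunit of the energy-sensing kinase SnRK1 (chr5:26348737, IRGSP-1.0, minus strand, cGATg, 7 bases from a splice site). Its fraction was 0.360 in the dark plumule, 0.433 in the light plumule, 0.526 and 0.518 in the 8-day and 2-week seedlings, 0.489 in the panicle, 0.496 in the flag leaf, 0.362 in the endosperm and 0.381 in the embryo. The 4 tissues from the 8-day seedling to the flag leaf were thus the highest, and the dark plumule and the seed tissues the lowest. The TPM of SNRK1A did not follow this order, with 78.1 ± 0.647 in the panicle, 65.6 ± 4.12 in the embryo and 19.4 ± 0.168 in the endosperm (SD, n = 2).

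OsATX1 followed (chr2:19472457, minus strand), with a lowest fraction of 0.343 in the panicle, a median of 0.395 and a highest of 0.436 in the endosperm, at depths from 125 to 1078. OsCDPK13, a calcium-dependent protein kinase gene, was even over the tissues (chr4:29532194, plus strand), from 0.318 in the 8-day seedling over a median of 0.336 to 0.376 in the light plumule. Its depth reached 1849 reads in the flag leaf.

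The site of 4CL4, a 4-coumarate:CoA ligase gene of phenylpropanoid synthesis (chr6:26943498, minus strand, aGATt), ran from 0.302 in the dark plumule to 0.373 in the flag leaf in 7 tissues and stood at 0.505 in the embryo. Its embryo depth of 58 was its lowest, and the TPM there was 7.19 ± 0.125, its lowest (SD, n = 2). That of OsGL1-10, of the Glossy1 family of cuticular wax synthesis (chr10:21309273, plus strand, aGATg, at a distance of 0 from a splice site), ran from 0.289 in the embryo to 0.333 in the light plumule in 7 tissues and stood at 0.452 in the flag leaf, at a depth of 180. In both genes 1 tissue lay well above the other 7.

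OsPLDalpha1, a phospholipase D gene, ranged from 0.2997 in the embryo to 0.388 in the flag leaf, with a median of 0.344 (chr1:3727261, minus strand). OsPAG1, a subunit gene of the 20S proteasome, ranged from 0.257 in the embryo to 0.410 in the flag leaf (chr1:34472345, plus strand). OsATG18c, an autophagy gene, ranged from 0.225 in the light plumule to 0.332 in the 2-week seedling (chr1:40970468, minus strand). OsRFP (Os05g0279400) ranged from 0.224 in the embryo to 0.303 in the 2-week seedling. PAO5, a polyamine oxidase gene, ranged from 0.219 in the embryo to 0.288 in the light plumule (chr4:34245163, minus strand). Sites in 4 genes without a symbol belong to the same group. Os07g0693900 reached 0.529 in the 2-week seedling, Os12g0263800 reached 0.447 in the flag leaf, Os04g0118400 reached 0.355 in the dark plumule and Os05g0533700 reached 0.322 in the endosperm. Of the 14 sites in this paragraph and those before it, 7 were lowest in the embryo. The embryo also had the lowest mean fraction over all 4394 deeply read members (0.0929). How many of the 4394 were lowest there was not counted, so the 7 are not read as particular to these sites.

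**Figure D5:**
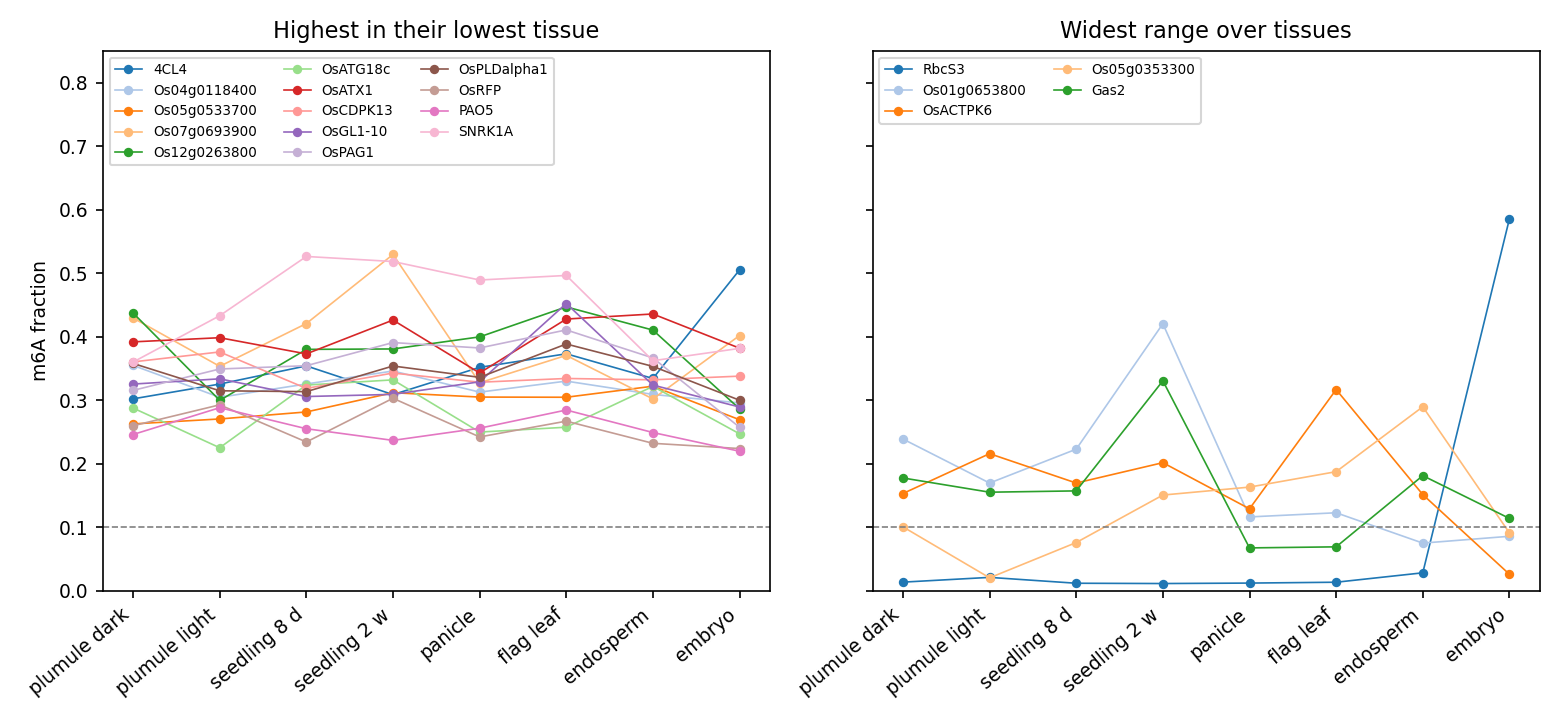
m6A fraction (vertical axis) in each of the 8 tissues (horizontal axis) for the 14 sites highest in their lowest tissue (left) and the 5 sites with the widest range (right), 1 line per site and a dashed line at 0.1. The lines on the left stay above 0.219, and RbcS3 on the right lies at or below 0.0279 in 7 tissues and at 0.585 in the embryo.

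The widest range of any deeply read member was in RbcS3, a small-subunit gene of Rubisco, the enzyme that fixes carbon dioxide (chr12:11263049, plus strand, gGATt). Its fraction was 0.0133 in the dark plumule, 0.0208 in the light plumule, 0.0115 and 0.0111 in the 8-day and 2-week seedlings, 0.0118 in the panicle, 0.0131 in the flag leaf, 0.0279 in the endosperm and 0.585 in the embryo. The embryo alone was high, and it was also the tissue with the least RNA of this gene: RbcS3 had 3.86 ± 1.63 TPM there (SD, n = 2) and 12133 ± 866 TPM in the 8-day seedling. The depth at the site was 210 reads in the embryo and 99671 in the 8-day seedling. RbcS3 belongs to a gene family, and in the embryo another member, RbcS1, had 1025 ± 14.4 TPM (SD, n = 2). How alike the sequences of these genes are was not examined. Whether reads of RbcS1 or of other members enter the embryo value was not tested, so that value is uncertain.

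The other members with a wide range varied without so large a gap in expression. Os01g0653800 (chr1:26455934, minus strand) had its highest fraction, 0.420, in the 2-week seedling and its lowest, 0.0747, in the endosperm, with a median of 0.146. OsACTPK6, an ACT-domain protein kinase gene (chr12:3237863, minus strand), had 0.316 in the flag leaf and 0.0256 in the embryo, with a median of 0.161. Gas2 (chr1:9703312, minus strand) had 0.330 in the 2-week seedling and 0.0672 in the panicle, with a median of 0.156. Os05g0353300 had 0.289 in the endosperm and 0.0200 in the light plumule. Its mean TPM was lowest in the endosperm (7.01) and highest in the flag leaf (49.6). At each of these 4 sites the highest value came from 55 to 74 reads, so the extremes rest on modest depth.

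Some deeply read members were counted in 1 tissue only. OsEIL3, of the EIN3-like transcription factors of ethylene signalling, had 0.176 in the dark plumule and at most 0.0895 elsewhere. OsSEU, named after the SEUSS corepressor of Arabidopsis, had 0.214 in the light plumule and at most 0.0812 elsewhere. OsRDCP1 had 0.275 in the flag leaf, where its TPM of 30.8 ± 0.0389 (SD, n = 2) was its lowest, and at most 0.0986 elsewhere. PBD had 0.240 in the endosperm and at most 0.0930 elsewhere. Os01g0329400 in the 8-day seedling (0.216), Os02g0592500 in the 2-week seedling (0.221) and Os01g0674000 in the panicle (0.201) complete the set beside RbcS3 in the embryo. Except at RbcS3, the value in the tissue that counted the site rested on 50 to 88 reads.

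Members with a fraction of at least 0.5 were few. There were 52, in 51 genes, and 39 of them reached 0.5 in 1 tissue only. The depth behind the highest value had a median of 31.5 reads and was at least 50 at 19 sites. These were chosen by value and are given as a description. An A stood before the triplet at 32.7% of them, against 83.5% of all members, and a G or a T at 28.8% each. OsCOMTL6, a caffeic acid O-methyltransferase-like gene, had such values in 6 tissues (chr4:5186211, plus strand, gGATt). Its fraction there was 0.609 in the dark plumule, 0.624 in the light plumule, 0.579 and 0.5004 in the 8-day and 2-week seedlings, 0.664 in the panicle and 0.642 in the flag leaf, at depths of 391, 370, 236, 107, 113 and 42. The endosperm and embryo had 19 and 2 reads. Os04g0530400 was counted in 8 tissues, from 0.225 in the dark plumule to 0.595 in the 2-week seedling. Rab16A, a dehydrin gene that responds to abscisic acid, had 0.402 in the embryo at a depth of 3555, 0.404 in the endosperm at 334 and 0.584 in the light plumule at 53. A site of Os07g0458800 (chr7:16003229, plus strand, aGATt) was listed at exactly 1 in the 8-day seedling, the flag leaf and the embryo with 20, 32 and 28 reads, and at 0.858 in the panicle with 24 reads.

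The 7708 genes with a counted member were a moderate part of the transcriptome. Taking genes that reached 1 TPM in 2 or more libraries as expressed, 7688 of 28562 (26.9%) held a counted member. The share followed expression and was 3.04%, 20.4%, 40.7% and 43.5% in 4 groups of equal size from the lowest to the highest mean TPM. Genes with a member had a median length of 1911 bases and a median TPM of 19.7, against 1291 bases and 5.83 TPM for the other expressed genes. Length and level thus moved with the share, and their part in it was not tested. Of the 7708 genes, 4054 (52.6%) held 1 counted member and 444 (5.76%) held 5 or more.

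OsNOT1, the scaffold gene of the CCR4-NOT deadenylase complex that shortens poly(A) tails, had the most. It held 16 counted members between positions 749 and 6820 of its transcript, none of them counted in all 8 tissues. Of the 16, 9 were counted in the light plumule and 3 in the dark plumule. Over all members the counts were 6226 and 5954. The gene was picked for its number of sites and a count depends on crossing 0.1, so no effect of light is read from this. The TPM of OsNOT1 was 23.0 ± 1.31 in the light plumule and 23.2 ± 2.09 in the dark plumule (SD, n = 2). Os01g0816400 held 15, Os06g0271500 held 12, and OsLIS-L1, Os08g0177300 and Os12g0516300 held 11 each, the last with a fraction of up to 0.774. All 6 are long genes, from 3804 to 7611 bases. The number counted per tissue in Os12g0516300 was highest in the flag leaf, with 9 sites, while the panicle and the 2-week seedling had 2 each, and the endosperm and the 8-day seedling 1 each. Its TPM was 18.1 ± 1.58 in the flag leaf but also 17.5 ± 1.79 in the 2-week seedling and 15.3 ± 0.493 in the panicle (SD, n = 2). In the 8-day seedling it was 7.78 ± 1.95 and in the endosperm 2.97 ± 0.116 (SD, n = 2).

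Gene families differed in the share of expressed genes with a counted member, which is to be read beside the 26.9% of all expressed genes. Auxin response factors, which bind auxin-responsive promoters, stood highest among the larger families, with 17 of 22 genes (77.3%), a median length of 2956 bases and a median TPM of 29.7. The SAPK kinases of abscisic acid signalling had 7 of 10, the cellulose synthases 6 of 9, and the Argonautes, which carry small RNAs, 8 of 16. The CCCH zinc finger family OsC3H had 26 of 54. The other families had shares from 19.3% to 33.3%. They were bHLH factors (22 of 114), WRKY factors (18 of 89), OsGELP lipases (20 of 89), ribosomal protein genes (17 of 74), OsRLCK kinases (52 of 208), OsSub proteases (12 of 46), F-box genes (100 of 365), MADS-box factors (9 of 31) and bZIP factors (20 of 60), from the lowest share to the highest. Nothing is read from the order of these 9. The ribosomal protein genes had the highest median level (226 TPM) and the shortest median length (812 bases) of these families. These counts carry no test, and no gene symbol matched the MT-A70 methyltransferases.

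All 6 phytochrome and cryptochrome genes, the red/far-red and blue light receptors, held counted members, against 26.9% of all expressed genes. Their median length was 3940 bases and their median TPM 23.8. The median length of all genes with a member was 1911 bases, so this share is not read as particular to light receptors. These 6 genes had 28 listed members, of which 27 were counted. The cryptochrome gene OSCRY2 held 6, and its first site (chr2:24916548, plus strand, gGATg) was counted in 8 of 8 tissues. Its fraction was 0.219 in the dark plumule, 0.226 in the light plumule, 0.189 and 0.183 in the 8-day and 2-week seedlings, 0.239 in the panicle, 0.173 in the flag leaf, 0.381 in the endosperm and 0.206 in the embryo. The endosperm alone stood apart, with 37 reads against 57 to 437 in the other tissues. The other 5 sites of OSCRY2 were counted in 1 to 6 tissues, with fractions of at most 0.252.

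In the phytochrome gene PHYC, the site at chr3:31007794 (plus strand, aGATg) was also counted in 8 of 8 tissues, from 0.103 in the embryo to 0.171 in the dark plumule. The other 4 PHYC sites were counted in 2 to 6 tissues. In PHYB, the site at chr3:11023472 (plus strand, aGATt) was counted in 7 tissues and reached 0.406 in the flag leaf with 53 reads, above 0.278 in the panicle with 143 reads. Its 8-day seedling value was 0.107. The endosperm value of 0.236 was not counted, at 17 reads. PHYA held 6 members, each counted in at most 3 tissues. At 4 of the 6 the highest value of a counted tissue was under 0.150, and PHYA had 40.1 ± 0.839 TPM in the dark plumule and 46.5 ± 3.18 in the light plumule (SD, n = 2). OsCRY1a held 2 and OsCRY1b 3, and none of these 5 was counted in the endosperm or embryo, where both genes had at most 1.45 TPM and the sites at most 10 reads.

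On average the members differed little between the light and dark plumules. At 12749 members covered by 20 or more reads in both plumules, the mean fraction was 0.106 in the light and 0.104 in the dark, a difference of 0.00203. It was higher in the light at 6506 sites and lower at 6141. At 815 sites it was higher by at least 0.1 and at 684 lower by as much. At 23966 GAC coding sites covered in the same way these numbers were 2397 and 2302. One of the members higher in the light was the PHYB site at chr3:11021272 (plus strand, aGATa), with 0.152 in the light at 79 reads and 0.0852 in the dark at 87 reads. Other photoreceptor sites were lower in the light. One in OsCRY1b (chr4:22553331) had 0 in the light at 29 reads and 0.248 in the dark at 32 reads. One in PHYA (chr3:29170195) had 0.0571 in the light at 79 reads and 0.145 in the dark at 92 reads. All of these were named after their values were seen. With 1 pooled value per condition these differences have no replicate check.

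The tissue labels were read against marker genes in the untreated libraries. The genes of light-harvesting proteins and of the Rubisco small subunit had their highest summed TPM in the 8-day seedling, that of prolamin and glutelin genes in the endosperm (76213 to 82706), that of oleosin genes in the embryo (25368 to 29851) and that of OsMADS genes in the panicle (1942 to 2035). The light-harvesting and Rubisco sum was lower in the light plumule (3500 to 3830) than in the dark plumule (4660 to 4682). These markers thus give no check of the light and dark labels. The embryo also held 6596 to 6795 TPM of the prolamin and glutelin genes, and the endosperm 6472 to 7586 TPM of the oleosins. In the 6 other tissues both sums were at most 20.6. The part of this overlap in the values of embryo and endosperm was not tested.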

How the data were processed

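The data comprise 32 polyA RNA libraries, 2 treated and 2 untreated for each of 8 rice tissues. The authors called sites with their public m6A-SAC-seq pipeline on IRGSP-1.0 and calibrated them with spike-in probes. The aligner and tool versions were not given in the sources used here. An m6A fraction per site and tissue, pooled over replicates, was deposited by the authors, so no binomial interval or test per site was made. Depth was deposited as a read count, and whether it sums or averages libraries is not given. The rule of the deposited flag is not given, and its misspelled 2-week column was matched by elimination. TPM values were deposited for 16 untreated libraries. No fraction of untreated libraries was used here.

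Counting needed a fraction of 0.1 and 20 reads or more. Contrasts within tissues used exact two-sided sign-flip permutation over 8 tissues, reproductive against vegetative tissues all 56 splits of 3 against 5, and Benjamini-Hochberg adjustment ran over 10 tests. The reading frame was taken from listed start and stop codon adenines, a choice made after seeing the data. The planned comparison with all GAT triplets was not run without an annotation. Named sites were the 10 members with the highest lowest-tissue fraction among those at a depth of at least 50 in 8 tissues, the same within genes with a symbol, the 5 with the widest range, the highest single-tissue site per tissue, the 5 genes with most members, with a tie, and photoreceptor genes. Those at 0.5 or more and the repeats were chosen after their values were seen. Members and lists were chosen with earlier results of these data known. Scripts were tested on simulated data (9 of 9 checks passed). All-value means without a fraction limit were added after seeing the data, and each site in them had reached 0.1 in at least 1 tissue. Alternatives changed the depth, fraction and flag rules, summary, comparison triplet and tissues. The tools were numpy 2.4.6, scipy 1.17.1, pandas 2.3.3 and matplotlib 3.10.9 under Python 3.11.15.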

Additional observations from a re-analysis of the deposited data

Results flagged for a closer look

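In 72 groups of 4 to 8 tissue values, 14 of them measures over all members or contrasts and 58 of them named sites at depths of at least 20, the gap of the extreme tissue to its nearest neighbour was set against Dixon's limit, which is 0.526 of the range for 8 values. None of the 14 and 17 of the 58 sites exceeded it, while chance flags about 1 in 20 groups. Many of these sites were chosen by values that favour a single high tissue, so their number is not read against chance.

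Among sites chosen for high values in every tissue, 4CL4 had a fraction of 0.505 in the embryo, against 0.302 to 0.373 in the other 7 tissues. OsGL1-10 had 0.452 in the flag leaf, against 0.289 to 0.333. Among those chosen for a wide range, RbcS3 had 0.585 in the embryo, against 0.0111 to 0.0279, and Gas2 had 0.330 in the 2-week seedling, against 0.0672 to 0.181. The 7 other sites chosen as counted in 1 tissue only exceeded the limit there, namely OsEIL3 (0.176), OsSEU (0.214), Os01g0329400 (0.216), Os02g0592500 (0.221), Os01g0674000 (0.201), OsRDCP1 (0.275) and PBD (0.240). A site of Os07g0458800 had 0.858 in the panicle, against exactly 1 in 3 tissues.

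The photoreceptor sites were chosen by gene. Each listed member had been counted or flagged in at least 1 tissue, however, which favours a single high tissue. These values are therefore not read against chance either. Among these sites, OSCRY2 had 0.381 in the endosperm at one site, against 0.173 to 0.239, and 0.252 in the flag leaf at another, against 0.0752 to 0.148. PHYA had 0.145 in the dark plumule at one site, against 0.0289 to 0.0763, and 0.244 in the endosperm at another, against 0.0170 to 0.0883. Both PHYA sites carried the detection flag in that tissue only. PHYC had 0.299 in the endosperm, against 0.0611 to 0.161, at 20 reads.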

How the results depend on the processing

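Of 177 values from alternative settings, 162 kept their side of the threshold, stayed within 1.5 times (numbers of sites) or stayed within a 95% interval taken over sites (light difference), including all 80 that left out 1 tissue. In 17 of the 162, 8 of them without 1 tissue, the sign turned while neither value passed the threshold, in the comparisons by last base, single-tissue share and tissue class. The exceptions were these. The difference between members without and with G after the triplet was 0.00203 with no depth minimum, 0.0111 at a fraction of at least 0.2, -0.00263 at sites read 50 times or more in all 8 tissues -0.00514 by medians and -0.0159 over all values of those sites without a fraction limit, a setting added after seeing the data, so its sign depends on the setting. At a fraction of at least 0.2 the difference between members and GAC coding sites was -0.543 points within 50 bases of a splice site, 23.0 points in the share of 1 tissue only and 0.915 points in the share with the flag, the gain at codon position 2 was 0.00731, 5294 members were counted, and the light difference was 0.00651. With the flag in place of the fraction limit, the share of 1 tissue only differed by 7.79 points and the light difference was 0.00723. At deeply read sites 4394 members were counted and the light difference was 0.000795. The causes were not tested. No paired analysis was possible because site values are pooled over replicates and TPM was not tested between groups. The share with the flag has no value under the flag rule, which fixes it. Depth limits what is counted, and a site absent from a thinly read tissue may not have been detectable there.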

Other observations

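Many members lay at the limit of counting. Values with a fraction from 0.1 to 0.105 at a depth of at least 20 numbered 4036, and those from 0.095 to 0.1 numbered 3742. Just inside the limit 38.4% carried the detection flag, and just outside it 0% did. The 5 deepest values just inside were 3 genes, OsLTP1.16 and OsLTP1.9 of the lipid transfer proteins and the sucrose synthase gene SUS1, at fractions of 0.102 to 0.103.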
